A study of Macaca mulatta with 10 samples.

Results

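Integrins are cell surface receptors made of 1 alpha and 1 beta subunit, and laminins are trimers of 1 alpha, 1 beta and 1 gamma chain that build the basement membrane around each muscle fiber, adipocyte and vessel. The genes of both families were chosen by name, without regard to their values. A gene belonged to the set when its symbol was that of a numbered integrin alpha subunit, of the integrin alpha subunits D, E, L, M, V or X, of integrin beta 1 to 8, or of a laminin alpha, beta or gamma chain. The rule found 32 of the 28595 genes in the files, of which 15556 carried a symbol. They were 15 integrin alpha subunits, 8 integrin beta subunits and 9 laminin chains, each with 1 gene per symbol. *ITGAD*, *ITGAM*, *LAMA1*, *LAMA5* and *LAMB3* were matched to no gene and were not analysed here, and *ITGA2B* lies outside the rule.

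The data are strand-specific RNA-Seq of poly(A) RNA from skeletal muscle and adipose tissue of 5 male rhesus monkeys, with 1 library per animal and tissue. The group labelled as having an extremely high insulin level is 1 monkey, rhesus_950807, which carries the nonsense mutation K410X of *PRKD2* (protein kinase D2) on 1 allele, and the controls are rhesus_920401, rhesus_940129, rhesus_940313 and rhesus_950509 (names as in the labels). All animals lived in the same facility on the same chow, with no age stated for these animals. Every comparison with rhesus_950807 is a comparison with 1 animal, so that its genotype, its insulin level and any other trait of that monkey cannot be told apart.

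A pair of integrin subunits crosses the membrane, binds the matrix outside and is held to actin inside by talin and its partners. The beta 1 subunit pairs with most alpha subunits, including those that bind collagen (alpha 1, 2, 10 and 11) and those that bind laminin (alpha 3, 6 and 7), whereas the beta 2 subunit is made by leukocytes. In the basement membrane of mature muscle fibers the known laminin carries the alpha 2 chain, which is bound by integrin alpha 7 beta 1 and by dystroglycan, and laminin with the alpha 4 chain is known from the walls of vessels and from adipose tissue.

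Levels are given as RPKM, reads scaled to transcript length and to library size, and the scale matters here. The deposited RPKM values divide by all mapped reads of a library, and on that scale the median gene was higher in adipose tissue than in muscle of the controls by 1.61 on the log2 scale. With TMM, which scales each library so that most genes are level, that median difference was 0.23. Unless the deposited RPKM is named, levels below are TMM-scaled RPKM and differences are those of edgeR's quasi-likelihood test on the counts, for genes whose deposited RPKM averaged 1 or more over the libraries compared. Adjusted p-values are Benjamini-Hochberg values over all genes tested.

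Mapped reads numbered 30669915 to 39379286 per library in control adipose tissue, 35682861 to 43268985 in control muscle, and 41780234 and 33961486 in the adipose tissue and muscle of rhesus_950807. Reads on the 32 genes numbered 61535 to 106093 in control adipose tissue and 11021 to 14455 in control muscle, and 119585 and 11258 in rhesus_950807. The tissue labels fitted their markers, with *ACTA1* at 24384 to 34057 RPKM in muscle and *ADIPOQ* at 631 to 1491 RPKM in adipose tissue (both deposited RPKM). The adipose libraries of rhesus_920401 and rhesus_940313 also held muscle RNA, with *ACTA1* at 101 and 80.9 deposited RPKM against 0.444 to 1.72 in the other adipose libraries. The calls between tissues were also made without these libraries. Most differences of rhesus_950807 in adipose tissue are given only with them. RPKM depends on the deposited transcript model, which was shorter than 2500 bases for 8 of the 32 genes, among them *ITGB1* with 2013 bases, *ITGB3* with 2295 and *ITGAE* with 636. A difference of a gene between libraries does not depend on that length, but a comparison between genes does. How the strand was used in counting is not stated, and 10 of the 32 genes overlap another annotated gene.

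**Figure D1:**
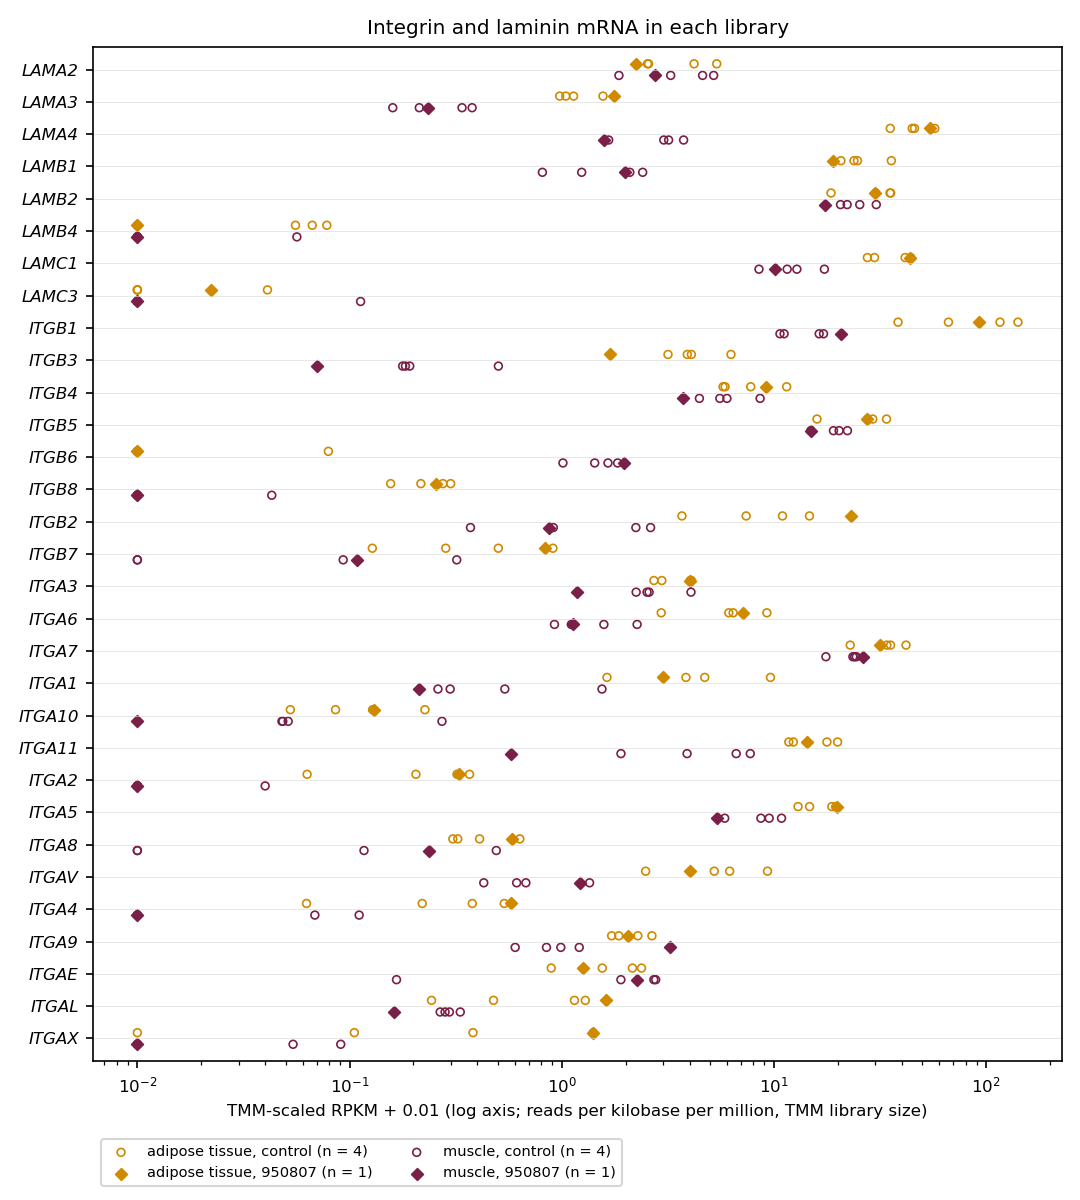
Level of each gene reported, in each library, as TMM-scaled RPKM plus 0.01 on a log axis, grouped by role from laminin chains at the top to leukocyte integrin alpha subunits at the bottom. Circles are the 4 controls and diamonds monkey rhesus_950807, in ochre for adipose tissue and in purple for muscle; *LAMA4*, *LAMB1* and *ITGB1* stand apart between the tissues and *LAMA2* and *ITGA7* do not.

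Between the tissues of the control monkeys, 11 of the 19 genes that could be tested were higher in adipose tissue and 0 were lower, at an adjusted p below 0.05 and a difference of at least 1 on the log2 scale. Of all 11173 genes tested, 29.6% were called higher in adipose tissue and 22% lower. The count of 11 is no measure of the families as a whole, because 7 of the 19 genes (*ITGA1*, *ITGA6*, *ITGA9*, *ITGAV*, *ITGB2*, *ITGB3* and *LAMB1*) had a mean under 1 deposited RPKM in muscle and passed the filter only through adipose tissue. Among the 12 genes that averaged 1 deposited RPKM or more in each of the tissues, 4 were called higher in adipose tissue (*ITGB1*, *ITGA11*, *LAMA4* and *LAMC1*) and 0 lower, against 16% and 27.6% of the 7881 genes of the whole table that met the same condition. The other 13 of the 32 genes fell below the filter. DESeq2 called 11 genes, and at an adjusted p below 0.05 alone edgeR called 13 of the 19 against 62.2% of all genes. All 11 edgeR calls were made in each of the 11 settings tried, including the fit that leaves out the 2 adipose libraries with muscle RNA and the fit with the animal as a block.

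Of the 5 laminin chains tested between the tissues, 3 were called higher in adipose tissue, where 29.6% of all genes tested were. Of the 3, *LAMB1* passed the filter only through adipose tissue. *LAMA4*, the alpha 4 chain (chromosome 4, 151687321 to 151834760 in the coordinates of the files, for which no source names a build), measured 45.9, 35.3, 44.7 and 57.2 in the adipose tissue of rhesus_920401, rhesus_940129, rhesus_940313 and rhesus_950509, and 3.01, 3.18, 1.65 and 3.74 in their muscle. Each adipose library thus lay above each muscle library, and the difference was 3.98 ± 0.30 (log2, SE; 95% confidence interval 3.33 to 4.64; edgeR adjusted p = 8.26e-07). *LAMB1*, the beta 1 chain, was 4.01 ± 0.36 higher (SE; adjusted p = 3.57e-06), from 1.63 ± 0.738 (SD, n = 4) in muscle to 26.2 ± 6.56 in adipose tissue. *LAMC1*, the gamma 1 chain found in most laminins (chromosome 1, 187516446 to 187638359), was present in both tissues, at 35.7 ± 8.27 (SD, n = 4) in adipose tissue and 12.5 ± 3.64 in muscle, a difference of 1.51 ± 0.27 (SE; adjusted p = 5.16e-04).

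The other laminin chains tested, *LAMA2* and *LAMB2*, did not part the tissues. *LAMA2*, the alpha 2 chain whose loss is known to cause a congenital muscular dystrophy, measured 5.36, 2.52, 2.55 and 4.19 in adipose tissue and 5.18, 4.59, 1.85 and 3.25 in muscle, in the same order of animals. These ranges overlap, and the difference of -0.02 had a 95% interval of -0.78 to 0.73. *LAMB2*, the beta 2 chain, was at 29.8 ± 7.90 (SD, n = 4) in adipose tissue and 24.6 ± 4.31 in muscle, with overlapping ranges and a difference of 0.28 (95% interval -0.26 to 0.82). On the scale of mapped totals *LAMA2* and *LAMB2* would be called higher in adipose tissue, as would every other gene of the 19 except *ITGAE*.

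The make-up of each chain type within a library does not depend on the scaling. *LAMA4* made up 90.5% ± 2.48 (SD, n = 4) of the summed RPKM of the alpha chains in control adipose tissue and 42.9% ± 7.31 in control muscle, where *LAMA2* made up 53.3% ± 6.81 against 7.16% ± 2.09 in adipose tissue. *LAMA2* was the larger part in 3 of the 4 control muscle libraries and *LAMA4* in that of rhesus_950509, with 52.0%. *LAMB1* and *LAMB2* took 47.1% ± 9.50 and 52.8% ± 9.54 of the beta chains in adipose tissue, and *LAMB2* 94.0% ± 1.79 in muscle. The ranges of the *LAMA4*, *LAMA2*, *LAMB1* and *LAMB2* shares did not overlap between the tissues. Monkey rhesus_950807 had *LAMA4* shares of 93.2% in adipose tissue and 34.4% in muscle, just outside the control ranges of 86.9% to 92.6% and 35.3% to 52.0%. *LAMA1* and *LAMA5* were not measured, so the shares are of the 3 alpha chains found.

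**Figure D2:**
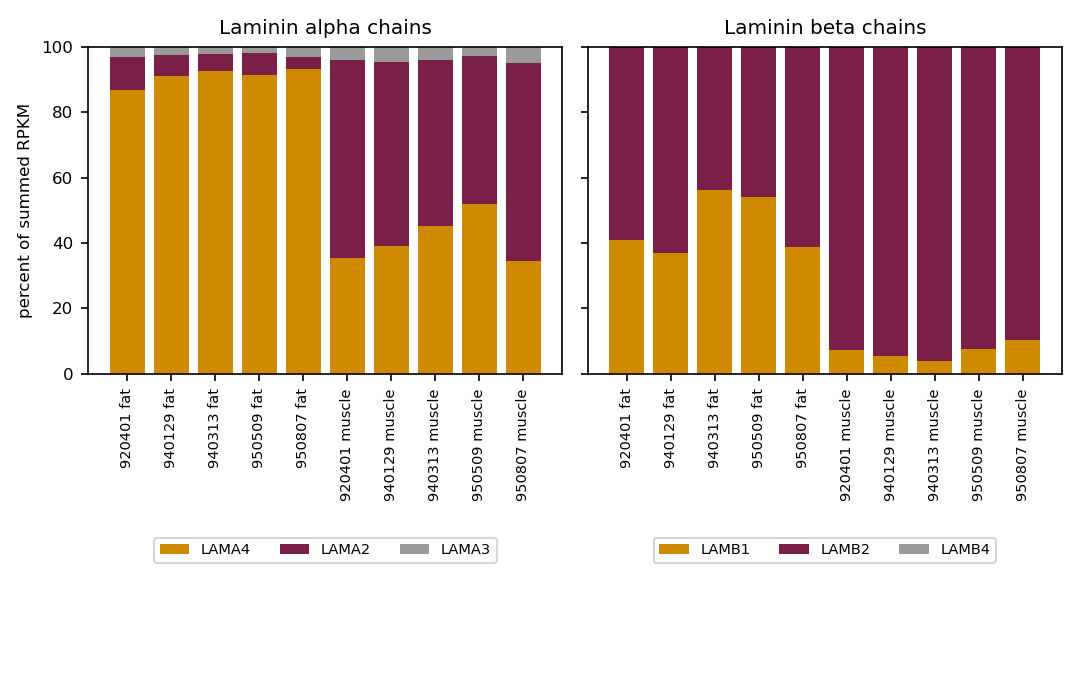
Share of each laminin alpha chain (left) and beta chain (right) in the summed RPKM of its chain type, in percent, 1 bar per library, adipose tissue first and then muscle. *LAMA4* fills 86.9% to 93.2% of the adipose bars and 34.4% to 52.0% of the muscle bars, and *LAMB2* 89.8% to 96.3% of the muscle bars; *LAMB4* is too low to be seen.

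*LAMA3*, an alpha chain of epithelial laminin, measured 1.17 ± 0.264 (SD, n = 4) in adipose tissue and 0.262 ± 0.103 in muscle, without overlap. It fell below the filter, and in the fit without a filter, where 23.5% of 18040 genes were called higher in adipose tissue, it was 2.11 ± 0.37 higher (SE; adjusted p = 1.81e-04). *LAMB4*, which lies beside *LAMB1* on chromosome 3, had at most 0.0681 in any control library, and *LAMC3* had at most 0.103.

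Among the beta subunits of the integrins, *ITGB1* and *ITGB3* were higher in adipose tissue. *ITGB1*, the common partner of the collagen and laminin receptors (chromosome 9, 33098105 to 33125054), measured 116, 38.4, 66.3 and 141 in the adipose tissue of rhesus_920401, rhesus_940129, rhesus_940313 and rhesus_950509 and 11.1, 16.3, 10.6 and 17.1 in their muscle. Its lowest adipose library was thus above its highest muscle library although the adipose libraries spread widely, and the difference was 2.71 ± 0.38 (SE; adjusted p = 9.67e-05). *ITGB3*, which pairs with alpha V and, in platelets, with alpha IIb, measured 3.15 to 6.26 in adipose tissue and 0.168 to 0.492 in muscle, a difference of 4.09 ± 0.47 (SE; adjusted p = 1.97e-05). The 3 of 5 platelet markers found summed to at most 0.404 deposited RPKM in any control library, with *GP1BA* at 0 in all of them. *PF4* and *PPBP* were not found, and the part of platelets was not tested.

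*ITGB5*, another partner of alpha V, and *ITGB4*, the partner of alpha 6 in hemidesmosomes, did not pass the test. *ITGB5* measured 33.9, 27.6, 15.9 and 29.2 in adipose tissue and 22.2, 20.2, 14.9 and 19.0 in muscle in the same order, and its difference of 0.48 had an interval of -0.06 to 1.03. Its ranges overlapped only through the adipose library of rhesus_940313, which held muscle RNA. The other adipose library with muscle RNA, that of rhesus_920401, was the highest, at 33.9. The part of muscle RNA in these levels was not tested. *ITGB4* was at 7.70 ± 2.67 and 6.14 ± 1.76 (SD, n = 4), with a difference of 0.33 (interval -0.33 to 0.99). In the sum of the beta subunits *ITGB5* took 45.3% ± 5.08 in muscle and 20.1% ± 6.93 in adipose tissue, and *ITGB1* 32.5% ± 4.48 and 62.0% ± 14.5.

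*ITGB6*, the alpha V partner known from epithelia (chromosome 12, 23650908 to 23741809), was the only one of the 32 genes with each control muscle library above each control adipose library. It had 93, 154, 153 and 161 reads in the muscle of rhesus_920401, rhesus_940129, rhesus_940313 and rhesus_950509, a level of 1.002 to 1.82. In adipose tissue it had 16 reads in rhesus_920401 and 0 in the other 3 controls and in rhesus_950807. Its mean over both tissues was below the filter, and in the fit without a filter it was lower in adipose tissue, with a log2 difference of -6.38 ± 0.98 (SE; adjusted p = 5.05e-05) where 15.9% of genes were called lower. The adipose library of rhesus_920401 is 1 of the 2 that held muscle RNA, and that of rhesus_940313, the other one, had 0 *ITGB6* reads. In deposited RPKM, *ACTA1* of rhesus_920401 was at 101 in adipose tissue and 29482 in muscle. On that scale *ITGB6* of this animal was at 0.107 and 0.522. The part of muscle RNA in these reads was not tested.

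Among the alpha subunits that bind laminin, *ITGA7* was the most abundant in both tissues. It measured 35.4, 41.8, 22.8 and 34.0 in adipose tissue and 24.4, 17.5, 24.0 and 23.5 in muscle of rhesus_920401, rhesus_940129, rhesus_940313 and rhesus_950509. The ranges overlapped only through the adipose library of rhesus_940313, which held muscle RNA. That of rhesus_920401, which also held muscle RNA, was at 35.4, and the part of muscle RNA was not tested. The difference of 0.58 ± 0.23 (SE) had an adjusted p of 0.0421 in edgeR but was under 1 on the log2 scale, and DESeq2 gave an adjusted p of 0.0885. *ITGA7* made up 49.8% ± 7.46 of the summed alpha subunits in muscle and 36.3% ± 5.49 in adipose tissue, by deposited transcript lengths. *ITGA6* was higher in adipose tissue by 2.08 ± 0.38 (SE; adjusted p = 6.03e-04), at 2.93 to 9.24 against 0.913 to 2.25. *ITGA3* differed by 0.27 (interval -0.31 to 0.86).

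Both collagen receptors that could be tested were called higher in adipose tissue, where 29.6% of all genes tested were. Of these, *ITGA1* passed the filter only through adipose tissue. *ITGA11*, known from fibroblasts and their kin, measured 19.9, 17.7, 11.7 and 12.3 in adipose tissue and 6.62, 3.88, 1.89 and 7.72 in muscle in the same order, without overlap, a difference of 1.62 ± 0.38 (SE; adjusted p = 0.00333). *ITGA1* was higher by 2.93 ± 0.65 (SE; adjusted p = 0.00210), and its lowest adipose library (1.62, rhesus_940129) was barely above its highest muscle library (1.54, rhesus_950509). *ITGA2*, the collagen receptor of platelets and epithelia, and *ITGA10*, that of cartilage, were at 0.357 or less in all control libraries.

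The receptors of fibronectin and other ligands with an RGD motif were *ITGA5*, *ITGA8* and *ITGAV*. *ITGAV* was higher in adipose tissue by 2.93 ± 0.45 (SE; adjusted p = 1.68e-04), at 2.47 to 9.30 against 0.419 to 1.34. *ITGA5*, the classic fibronectin receptor, lay higher in each adipose library (13.0 to 19.5) than in each muscle library (5.84 to 10.8), with a difference of 0.92 ± 0.24 (SE; adjusted p = 0.00554) that stayed under the limit of 1. *ITGA9* differed by 1.23 ± 0.29 (SE; adjusted p = 0.00313), and *ITGA8* and *ITGA4*, the latter known from lymphocytes, were below the filter. On the TMM scale 12 of the 19 genes tested had each adipose library above each muscle library and 0 had each below, where 28.9% and 26.7% of all genes tested did. The 7 genes that passed the filter only through adipose tissue are all among those 12. Of the 12 genes that averaged 1 deposited RPKM or more in each of the tissues, 5 lay above and 0 below, against 18.1% and 34.3% of all such genes. On the deposited RPKM scale, where scaling to the mapped totals puts the median difference of all genes at 1.61 on the log2 scale, 25 of all 32 genes lay above.

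**Figure D3:**
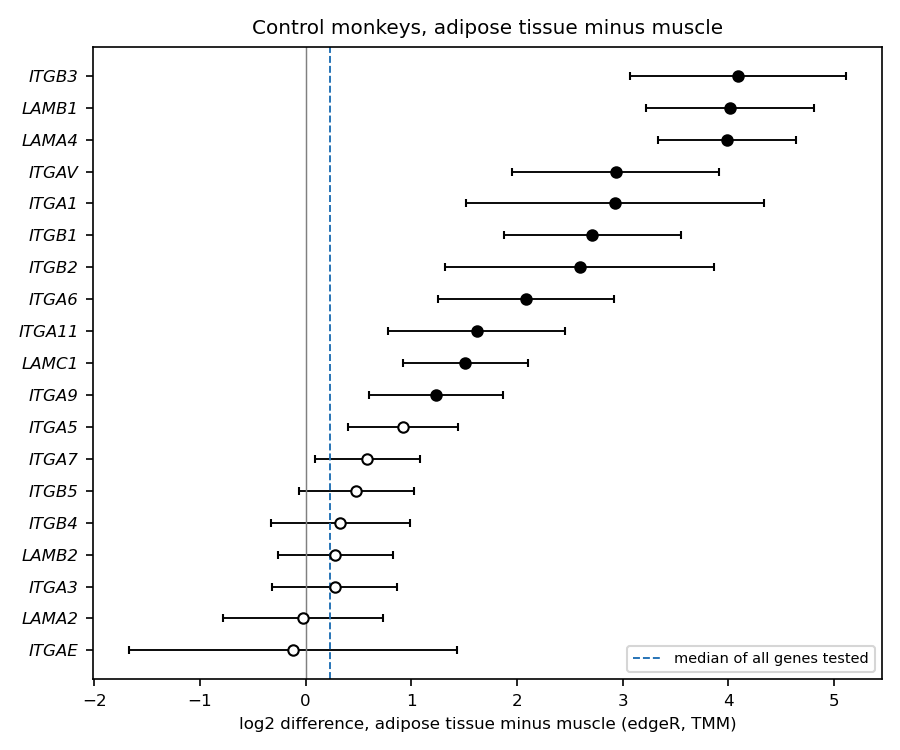
Log2 difference between adipose tissue and muscle of the 4 control monkeys for the 19 genes that passed the filter, with 95% confidence intervals (edgeR, TMM scaling). Filled points are the 11 genes called higher in adipose tissue, the dashed line is the median of all genes tested (0.23), and *ITGAE* and *LAMA2* lie just below 0.

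The leukocyte subunit *ITGB2* was also higher in adipose tissue, by 2.59 ± 0.58 (SE; adjusted p = 0.00236). Of the macrophage markers, 6 of the 6 found and tested were called higher there, where 29.6% of all genes tested were. Of these, 2 passed the filter only through adipose tissue. The other 4 stand against 16% of all genes that averaged 1 deposited RPKM or more in each of the tissues. The deposited RPKM of the 6 macrophage markers summed to 110 to 311 in control adipose tissue and to 8.51 to 26.1 in control muscle, with none at 0. Among markers of other cells, 6 of 7 fibroblast, 4 of 6 endothelial and 2 of 8 smooth muscle and pericyte markers were called higher and 0 lower. Of all genes tested, 29.6% and 22% were. Of those markers averaging 1 deposited RPKM or more in each tissue, 6 of 7, 3 of 5 and 2 of 8 were higher. Of these, 0 were lower, and the shares of all such genes were 16% and 27.6%. In bulk RNA, fewer cells of a type and less RNA per cell cannot be told apart, and the part of leukocytes in the result was not tested. *ITGAE* did not differ beyond its spread, with a difference of -0.12 and an interval of -1.67 to 1.43 on a gene model of only 636 bases.

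Genes that work with the integrins and laminins were counted from lists of their partners. Of 7 basement membrane partners tested, 5 were called higher in adipose tissue and 0 lower, where 29.6% and 22% of all genes were. Of those 7, *NID2*, *AGRN* and *COL18A1* averaged under 1 deposited RPKM in muscle and passed the filter only through adipose tissue. The other 4 were all called higher, against 16% of all genes that averaged 1 deposited RPKM or more in each of the tissues. The nidogens, which link laminin to collagen IV, and collagen IV itself led the list, with *NID2* higher by 3.80, *COL4A1* by 2.76, *COL4A2* by 2.004 and *NID1* by 1.36 on the log2 scale. Of 18 adhesion proteins inside the cell, 7 were higher and 3 lower, where 29.6% and 22% of all genes were. Of the 15 that averaged 1 deposited RPKM or more in each of the tissues, 5 were higher and 2 lower, against 16% and 27.6% of all such genes. The parvins *PARVA* and *PARVB*, which bind integrin-linked kinase, went in opposite directions, by 3.05 and -3.24, while *ACTN1*, an alpha-actinin, was higher by 2.47 and *ITGB1BP2*, the muscle protein melusin that binds the beta 1 tail, differed by -8.13.

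The dystroglycan complex is the other laminin receptor of muscle. Of its 16 genes tested, 3 were higher and 10 lower in adipose tissue, against 29.6% and 22% of all genes. Of the 12 that averaged 1 deposited RPKM or more in each of the tissues, 1 was higher and 8 lower, against 16% and 27.6% of all such genes. *SGCA*, the muscle form of sarcoglycan alpha, differed by -8.56 and *SGCE*, its widely expressed relative, by 2.50. *DTNA* (dystrobrevin alpha) differed by -5.03. On the scale of mapped totals 5 of these 16 genes were called higher and 4 lower, so that the lean of this list depends on the scaling.

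In muscle, the library of the hyperinsulinemic monkey was compared with the 4 control libraries to see which of these genes set it apart. EdgeR called 0 of the 12 genes tested and 0 of 8306 genes over the whole table (0%). At an unadjusted p under 0.05 there were 2 of the 12, *ITGA11* and *ITGA3*, against 9.08% of all genes, and DESeq2 called 1 of the 12, *ITGA11*, against 1.06%. With 1 animal against 4 the exact permutation test of a single value cannot go below p = 0.2, and the fitted values assume that rhesus_950807 varies like the controls.

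*ITGA11* (chromosome 7, 46910783 to 47013663) measured 0.563 in the muscle of rhesus_950807 and 6.62, 3.88, 1.89 and 7.72 in that of the controls rhesus_920401, rhesus_940129, rhesus_940313 and rhesus_950509. These are 55 reads, with an exact Poisson interval of 41.4 to 71.6 that covers counting error only, against 199 to 666 reads. The level of rhesus_950807 was below every control, and the difference was -3.10 ± 0.82 (SE; 95% interval -4.93 to -1.26; edgeR adjusted p = 0.448). DESeq2 gave -3.09 with an adjusted p of 0.00131, and edgeR without control rhesus_940313, the lowest control, gave -3.39 with an adjusted p of 0.0460. Over all 9 alternatives the adjusted p ran from 0.00131 to 0.554. In adipose tissue *ITGA11* of rhesus_950807 was within the control range, at 14.3 against 11.7 to 19.9.

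*ITGA3* measured 1.17 in the muscle of rhesus_950807 and 4.05, 2.23, 2.51 and 2.57 in the controls, a difference of -1.20 ± 0.47 (SE; edgeR adjusted p = 0.502). *ITGB1* was above each control, at 20.7 against 10.6 to 17.1, with a difference of 0.64 ± 0.37 (SE; adjusted p = 0.637), and so was *ITGA7*, at 26.3 against 17.5 to 24.4 (0.31 ± 0.26, SE; adjusted p = 0.758). In all, 2 of the 12 genes lay above and 6 below the range of the controls, against 19.3% and 28% of all genes, so that 47.3% of all genes lay outside that range. Those below were *ITGA11*, *ITGA3*, *ITGA5*, *ITGB4*, *LAMA4* and *LAMB2*, of which *ITGA5* and *LAMA4* were within the control range by deposited RPKM. The median of the 12 was -0.40 against -0.03 over all genes.

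*ITGA9*, which binds tenascin and osteopontin, fell below the filter in muscle, and rhesus_950807 had more of it than any control. It measured 3.23 in rhesus_950807, with 522 reads, and 0.593, 1.198, 0.837 and 0.979 in the controls. The controls lay close together, and in the fit without a filter the difference was 1.91 ± 0.43 (SE; edgeR unadjusted p = 2.83e-04, adjusted p = 0.141). *ITGB6* measured 1.95 against 1.002 to 1.82.

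The summed markers of other cell types are given beside these values, and no marker was called by edgeR. The 8 smooth muscle and pericyte markers, all found, summed to 65.0 deposited RPKM in the muscle of rhesus_950807 and to 108 to 156 in that of the controls, with none at 0, and their median difference was -1.14. This sum lay below that of every control. On the same deposited scale the 7 of 8 fibroblast markers found summed to 166 against 168 to 239, close to the lowest control. The 6 of 8 endothelial markers found summed to 29.9 against 25.6 to 37.6, within the control range. TMM multiplied the deposited RPKM by 1.57 in this library and by 1.75 to 1.92 in the control muscle libraries. On the TMM scale the fibroblast and the endothelial sum therefore both lay below that of every control, the endothelial one narrowly. The median edgeR difference was -0.35 for the fibroblast and -0.45 for the endothelial markers, against -0.03 over all genes. The part of these cells in the levels of *ITGA11*, *ITGA3* and *LAMA4* was not tested.

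In adipose tissue, edgeR called 0 of the 22 genes tested and 0 of 11981 genes over the table (0%). At an unadjusted p under 0.05 there were 2 of the 22, *ITGB2* and *ITGB3*, against 2.39% of all genes, and DESeq2 called 0 of the 22 against 0.0918%. The range of the controls was exceeded by 5 of the 22 genes and missed below by 3, against 14.3% and 16.1% of all genes, or 30.4% on either side. The genes above were *ITGB2*, *ITGAL*, *ITGAX*, *ITGA5* and *LAMA3*, and those below were *ITGB3*, *LAMA2* and *LAMB1*. Which genes these are depends on the scaling. By deposited RPKM *LAMA2* and *LAMB1* were within the control range, and *ITGA3*, *LAMA4* and *LAMC1* lay above it as well. *ITGAX* averaged 0.690 deposited RPKM in the controls and passed the filter only through rhesus_950807, so it is no part of a comparison with the share of all genes.

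*ITGB2*, the beta chain of the leukocyte integrins, measured 23.1 in the adipose tissue of rhesus_950807 and 14.7, 7.38, 10.9 and 3.67 in rhesus_920401, rhesus_940129, rhesus_940313 and rhesus_950509. The difference was 1.36 ± 0.59 (SE; 95% interval 0.04 to 2.68; edgeR unadjusted p = 0.0442, adjusted p = 0.9999). *ITGB3* went the other way, at 1.67 in rhesus_950807 and 3.89, 6.26, 3.15 and 4.07 in the controls, a difference of -1.34 ± 0.57 (SE; interval -2.62 to -0.07; unadjusted p = 0.0410, adjusted p = 0.9999). *ITGB1*, *ITGA7*, *ITGA11*, *LAMB2* and *LAMA4* of rhesus_950807 were within the control ranges.

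The leukocyte integrins were followed with the immune cell markers on the deposited RPKM scale. *ITGAL*, which forms LFA-1 with beta 2, measured 2.64 in rhesus_950807 and 0.319 to 1.97 in the controls, and *ITGAX*, the CD11c of dendritic cells and some macrophages, 2.31 against 0 to 2.14. *ITGA4* and *ITGB7*, which pair in lymphocytes that home to the gut, measured 0.939 against 0.0744 to 0.807 and 1.36 against 0.161 to 1.17. *ITGAE*, which pairs with beta 7 in lymphocytes of epithelia, was within the control range, at 2.07 against 1.35 to 3.23. *ITGB2*, *ITGAL*, *ITGAX*, *ITGA4* and *ITGB7* were thus highest in rhesus_950807 by deposited RPKM and *ITGAE* was not, and on the TMM scale *ITGAX* was level with rhesus_920401 (1.40 against 1.39) and *ITGB7* was below rhesus_940313 (0.823 against 0.898).

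The 6 of 8 macrophage markers found summed to 377 deposited RPKM in the adipose tissue of rhesus_950807 and to 110 to 311 in the controls. The 5 of 8 T and NK cell markers found summed to 67.0 against 20.4 to 49.0, and the 4 of 6 neutrophil markers to 44.9 against 6.16 to 48.5, with none of these markers at 0. Among the controls, rhesus_920401 was highest in *ITGB2*, *ITGAL*, *ITGAX*, *ITGA4* and both the macrophage and the T and NK cell sums, and rhesus_950509 was lowest in *ITGB2*, *ITGAL*, *ITGAX*, *ITGB7* and both sums. The part of leukocytes in the levels of these integrins was not tested.

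**Figure D4:**
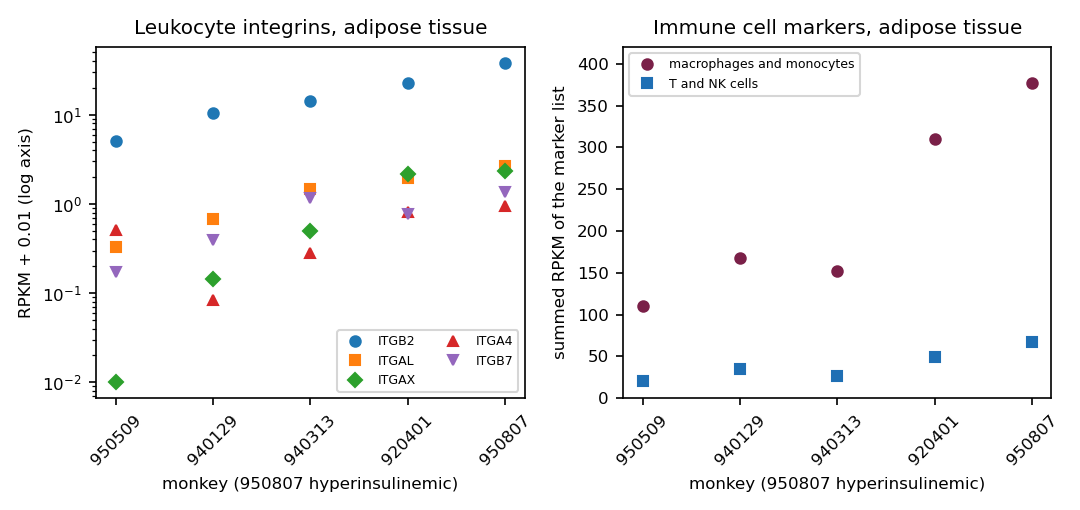
Adipose libraries of the 5 monkeys, placed from the lowest to the highest *ITGB2* level. Left, deposited RPKM plus 0.01 of 5 leukocyte integrin genes (*ITGAE* not drawn) on a log axis; right, summed deposited RPKM of the macrophage and of the T and NK cell markers, with rhesus_950807 highest in each.

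The differences of rhesus_950807 were compared between the tissues by the interaction term of a fit of all 10 libraries. EdgeR called 0 of 12 genes and 0 of 7938 genes (0%), and DESeq2 called 0 of the 12 and 0.202% of all genes. At an unadjusted p under 0.05 there were 2 of the 12 against 5.47% of all genes, *ITGA11* with 3.08 ± 0.89 (SE; adjusted p = 0.822) and *ITGA3* with 1.52 ± 0.57 (SE; adjusted p = 0.902), both lower relative to the controls in muscle than in adipose tissue. No gene of the basement membrane, adhesion or dystroglycan lists was called in muscle, in adipose tissue or in the interaction by edgeR or DESeq2. At an unadjusted p under 0.05 by edgeR there were 3 of 14 dystroglycan genes in muscle against 9.08% of all genes, 1 of 18 adhesion genes in adipose tissue against 2.39%, 1 of 13 dystroglycan genes in the interaction against 5.47%, and 0 of each other list.

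**Figure D5:**
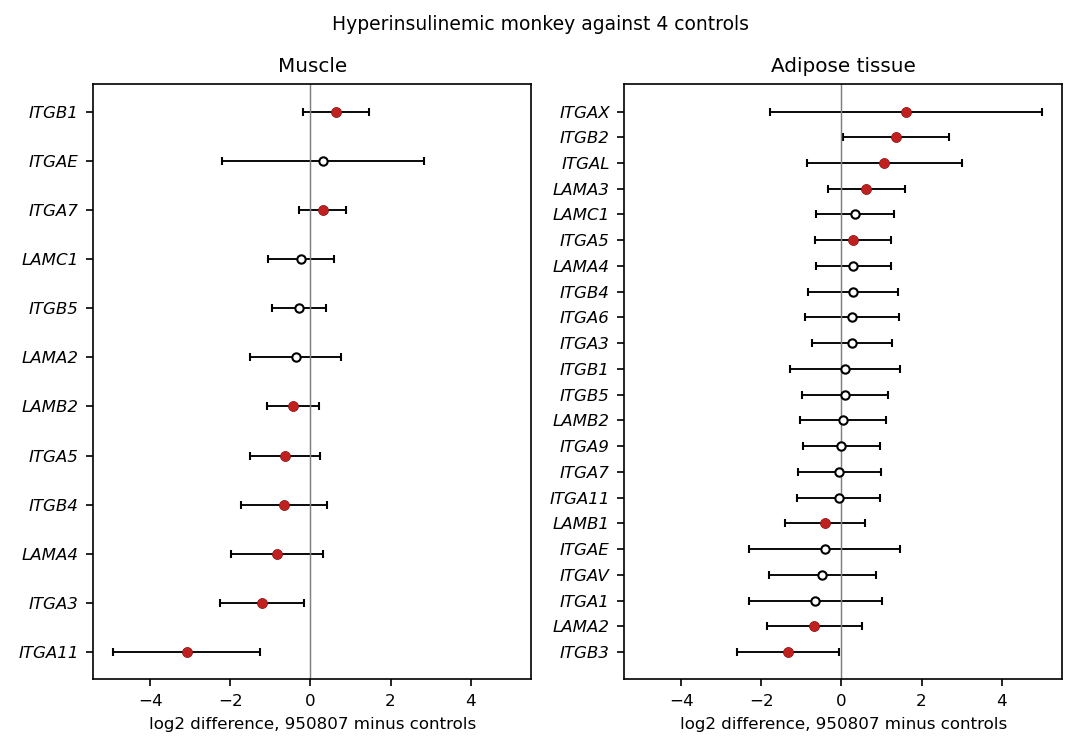
Log2 difference between monkey rhesus_950807 and the 4 controls in muscle (left, 12 genes) and adipose tissue (right, 22 genes), with 95% confidence intervals (edgeR, TMM scaling). Red points are genes whose level in rhesus_950807 was outside the range of the controls; *ITGA11* lies lowest in muscle, and 0 genes had an adjusted p below 0.05.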

How the data were processed

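Reads of the 10 libraries were sequenced on an Illumina HiSeq and mapped with TopHat (release 1.2.0 per the submitters' processing notes; the paper names another release), and uniquely mapped reads were kept. No source used here names the counting tool, genome build or annotation. The authors deposited read counts per gene and RPKM, which were checked to equal the counts divided by the transcript length and by the mapped total. Symbols came from an Ensembl name table (54.4% of genes).

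Counts were tested with edgeR 4.0.16 (TMM, quasi-likelihood, R 4.3.3) where the mean deposited RPKM of the libraries compared was at least 1. Genes were called at an adjusted p below 0.05 and, between tissues, a log2 difference of at least 1. Alternatives were DESeq2 1.42.0, other scalings, no filter, leaving out libraries, all 10 libraries in 1 fit, and the animal as a block. The fits were tested on simulated data. The tissues come from the same animals, and the deviations of an animal's libraries from the group means correlated by -0.215 to 0.151.

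All 32 genes entered the counts, and of each partner list at most 4 genes were named, those with the smallest p between tissues. A few genes that the rule names are not reported here. The genes, lists and tests were chosen with earlier results of these data known. With 1 library per animal and tissue, p-values measure the spread between animals and preparation together.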

Additional observations from a re-analysis of the deposited data

Results flagged for a closer look

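In groups of 4 control libraries, 9 of 64 gene and tissue groups had 1 library far from the other 3 (Dixon's test at the 95% level). In 6 of the 9 the other 3 libraries had 0 reads, so that any read in the fourth one meets the test. Chance flags about 1 group in 20 where values vary continuously, a rate that does not apply to those 6, and the remaining 3 are *ITGA10*, *ITGB3* and *ITGA3* in muscle. All values are deposited RPKM. In 8 of the 9 the value stood on 26 reads or fewer. In muscle these were *ITGA10* in rhesus_950509 at 0.138, *ITGA2* in rhesus_950509 at 0.0158, *ITGB3* in rhesus_940129 at 0.281 (the others at 0.0902 to 0.0958), *ITGB8* in rhesus_920401 at 0.0172, and *LAMB4* and *LAMC3* in rhesus_940129 at 0.0265 and 0.0586. In adipose tissue they were *LAMC3* in rhesus_950509 at 0.0424 and *ITGB6* in rhesus_920401 at 0.107, the latter with 16 reads against 0 in the other 3. The level with more reads was *ITGA3* in the muscle of rhesus_920401, at 2.11 with 386 reads against 1.27 to 1.36 in the other controls. The difference of *ITGA3* between rhesus_950807 and the controls in muscle was -1.02 to -1.29 with each control left out in turn.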

How the results depend on the processing

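Of 638 values of single genes recomputed under alternatives, 604 kept their direction and their side of the threshold. Scaling to the mapped totals called 18 genes of the families between tissues in place of 11, raised the share of all called genes that were higher in adipose tissue from 57.4% to 89.8%, and gave *ITGAE* 1.22 and *LAMA2* 1.38 where TMM gave -0.12 and -0.02. The same scaling gave rhesus_950807 differences in adipose tissue of 0.11 for *ITGA11*, 0.13 for *ITGA7* and 0.17 for *ITGA9*. The replicate block (the animal) gave *ITGAE* 0.20 and *LAMA2* 0.0084 between tissues and changed no call of the families there or in the interaction, with 5712 genes called in all against 5767. Without the adipose libraries of rhesus_920401 and rhesus_940313, *ITGAE* between tissues was 0.20, *ITGB5* and *LAMB2* of rhesus_950807 in adipose tissue were -0.0032 and -0.0890, and 32 genes of the whole table were called there. *ITGA9* in adipose tissue was 4.41e-04 in DESeq2 and 5.27e-04 with median-of-ratios scaling, and *LAMB2* was -0.0021 in the fit of all 10 libraries.

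Leaving out each control in turn gave 11 to 12 called genes of the families between tissues, *ITGAE* -0.30 to 0.18 and *LAMA2* -0.16 to 0.18. In muscle it gave 0 to 14 called genes and 0 to 1 of the families, with 14 and 1 without rhesus_940313, and *ITGAE* -0.0873 to 0.56. In adipose tissue it gave 0 to 7 called genes, with 7 without rhesus_920401, *ITGA11* -0.17 to 0.0772, *ITGA7* -0.19 to 0.0991, *ITGA9* -0.0795 to 0.0986, *ITGB1* -0.15 to 0.36, *ITGB5* -0.0837 to 0.23 and *LAMB2* -0.12 to 0.16. In muscle, DESeq2 called 88 genes and 1 of the families, median-of-ratios scaling 1 gene, the mapped totals 3 and no filter 10, against 0. DESeq2 called 11 genes in adipose tissue and 16 in the interaction, against 0. Apart from fits with fewer libraries, the causes were not tested. Several genes under 1 deposited RPKM rested on few reads, whereas *ITGB6* had 93 to 161 in control muscle. *ITGAE*, which passed the filter on its short gene model, had 2 to 41 reads there. A difference of 1 animal from 4 could be called only where it was large against the spread of the controls.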

Other observations

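The control adipose libraries differed among themselves in which genes they held most of. In 7 of the 22 genes tested in adipose tissue, rhesus_940129 was lowest and rhesus_950509 highest on the TMM scale. They were the integrin subunits *ITGA1*, *ITGA6*, *ITGA9*, *ITGAV* and *ITGB1* and the laminin chains *LAMA4* and *LAMB1*, with ratios of the highest to the lowest library from 1.55 to 5.92. On the deposited RPKM scale 6 of the 7 kept this lowest and highest animal. *ITGB3*, *ITGA3* and *ITGA7* had rhesus_940129 highest and rhesus_940313 lowest, and the leukocyte subunits *ITGB2*, *ITGAL* and *ITGAX* had rhesus_920401 highest and rhesus_950509 lowest. These are single libraries, the orders were noticed in the data, and they were not tested.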
